A study of Bos taurus with 6 samples.

Results

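The enzymes of lysine breakdown and of carnitine synthesis were examined in testes of Wandong cattle, a Chinese breed of Bos taurus. The 10 genes were taken by symbol from the deposited table of genes, in which they fill 11 of 47249 entries because the symbol AADAT stands at 2 of them. The libraries are labelled as testicular tissue of 3 immature calves aged 3 months (calf 1 to calf 3) and of 3 andrologically mature bulls aged 3 years (bull 1 to bull 3). No treatment is named for any animal. Each gave 1 library of RNA from tissue described as cut from the middle of the testis, with ribosomal RNA removed. Levels are FPKM, that is sequenced fragments divided by transcript length and by the size of the library, so that levels of different genes can be set side by side.

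Lysine is broken down in mitochondria by a route through saccharopine. AASS joins lysine to oxoglutarate and splits the product, ALDH7A1 oxidises the semialdehyde that arises, and AADAT removes the amino group. The oxoadipate dehydrogenase complex, with DHTKD1 as its E1 and DLST as its E2 subunit, then forms glutaryl-CoA, which GCDH turns into crotonyl-CoA. A side route runs through pipecolate and is closed by the peroxisomal oxidase PIPOX. Carnitine, which carries fatty acids into mitochondria and is abundant around maturing sperm, is made from trimethylated lysine released from proteins: TMLHE hydroxylates it, ALDH9A1 oxidises a later aldehyde to butyrobetaine, and BBOX1 hydroxylates butyrobetaine to carnitine. This last step is best known from liver and kidney.

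The library labelled calf 3 went against its label. Of 8 Sertoli cell markers it reached an FPKM of at least 1 in 2, whereas calf 1 and calf 2 did so in 8, and FSHR, WT1 and GATA4 were listed at 0. Of the 8 entries for Leydig cell markers it reached that level in 0, and their summed FPKM was 0.466 against 1158 to 2735 in the other 5 libraries. Markers of oligodendrocytes, astrocytes and neurons summed to 13684 in calf 3 and to between 10.5 and 17.1 elsewhere, and 8 of 8 were above an FPKM of 1 there. The fold changes of genes between the ages are therefore also given without calf 3. The tissue of the other libraries matched the labels, and spermatid markers summed to 2.57 and 2.61 in calf 1 and calf 2 and to between 13419.6 and 15255 in bulls, so the bull libraries hold RNA of late germ cells that is near 0 in the calf libraries. These markers separate the ages in the same way as the comparisons below, and their part in the results was not tested. Sertoli cell markers separate the ages the other way, with sums of 2821 and 2693 in calf 1 and calf 2 and of 380 to 398 in bulls, and so do macrophage markers, with 80.1 and 57.6 against 18.4 to 20.03. Their part in the enzymes called lower was not tested either. In bulk tissue, fewer cells of a type and less RNA per cell cannot be told apart.

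Of the 11 entries, 8 had 3 or more libraries at an FPKM of 1 or above and were tested, whereas BBOX1, PIPOX and the second AADAT entry did not. All 18115 genes that passed were fitted with limma on log2(FPKM + 1). A call asked for an adjusted p below 0.05 together with at least a doubling or its inverse, that is a log2 fold change of 1 in size, where negative values are lower in bulls. TMLHE, ALDH7A1 and GCDH fell in bulls by this rule, and no enzyme was called higher. Among all genes tested, 9.61% were called lower and 35.7% higher in bulls. With calf 3 left out, AASS was called lower as well, which makes 4 of 8, where 13.6% of all genes tested were called lower and 37.9% higher. TMLHE passed the filter through the calves alone, so that it had to differ, and the counts are given as a description. The FPKM of calves and bulls did not overlap in 5 of the 8 enzymes, and in 6 of 8 without calf 3, where the shares of all genes tested were 67.4% and 84.4%. On the log2(FPKM + 1) scale, calf 3 differed by 1 or more from the average of the other calves in 1 of the 8, AASS, and in 29.2% of all genes tested, with ALDH7A1 just inside that limit (0.98, or 2.03-fold in FPKM). The median log2 fold change was −0.54 over the 8 enzymes and 0.43 over all genes tested, and without calf 3 these were −0.56 and 0.43.

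**Figure D1:**
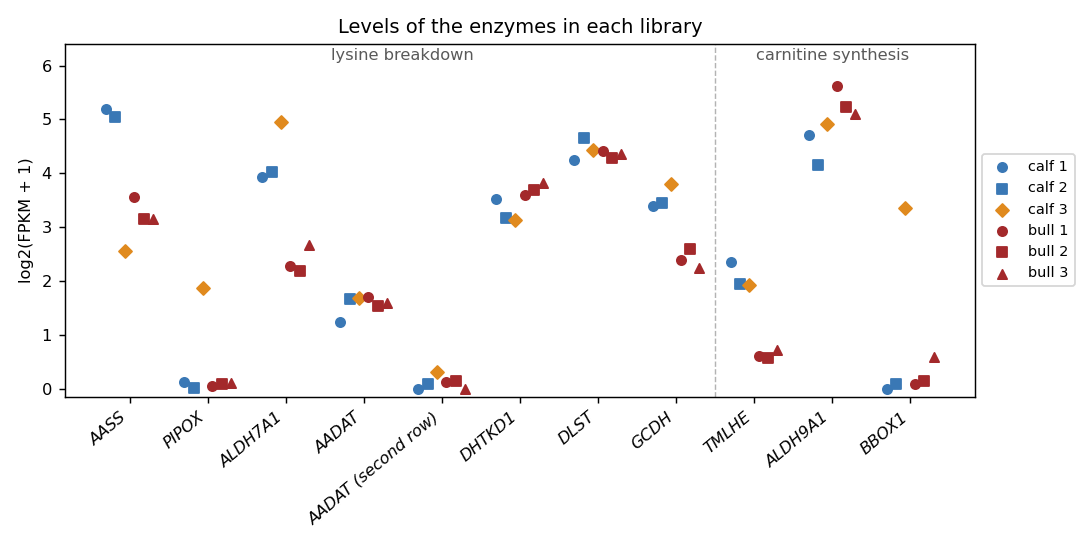
Level of each enzyme in each library, as log2(FPKM + 1), with lysine breakdown to the left and carnitine synthesis to the right of the dashed line. Blue and orange points are calves (orange: calf 3) and red points are bulls; BBOX1 and PIPOX reach an FPKM of 1 in calf 3 only, and the bulls lie below all calves for ALDH7A1, GCDH and TMLHE.

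AASS (ENSBTAG00000012128, chromosome 4, 86512407 to 86594679), the entry enzyme of the saccharopine route, stood at 35.6 FPKM in calf 1, 31.9 in calf 2, 4.88 in calf 3, 10.8 in bull 1, 7.85 in bull 2 and 7.90 in bull 3. Calf 1 and calf 2 were far above the bulls, and calf 3 was below them, so the groups overlapped. By limma, the log2 fold change over all libraries was −0.98 ± 0.72 (standard error) with an adjusted p of 0.292. Without calf 3 it was −1.83 ± 0.17 (adjusted p = 0.000137), and the mean of the bulls, 8.86 ± 1.71 (SD, n = 3), was 0.262 of the mean of calf 1 and calf 2. It was −0.51 without calf 1 and −0.59 without calf 2, neither called, and both of these fits keep calf 3. The size of the difference thus depends on which calf is left out, with calf 1 and calf 2 close to each other and calf 3 apart. In calf 1 and calf 2, AASS was the most abundant of the 10 enzymes, and in each bull it stood below ALDH9A1, DLST and DHTKD1.

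The level of AASS is listed as the sum of 3 transcripts. The table of transcripts lists AASS-201 (86516905 to 86588961) and AASS-202 (86517275 to 86594679), whose spans overlap over most of their length, and a short antisense transcript, AASS-AS1 (86512407 to 86517956). AASS-201 stood at 24.3, 21.6 and 1.37 FPKM in the calves in that order, and at 0.894, 0.776 and 0.506 in bull 1, bull 2 and bull 3. AASS-202 had 10.9, 9.83 and 3.17 in the calves in the same order, and 9.88, 7.03 and 7.30 in the bulls. AASS-201 was therefore high in calf 1 and calf 2 alone, whereas AASS-202 in bull 1 was between its levels in calf 2 and calf 1. With all libraries, the log2 fold change was −2.69 (adjusted p = 0.0516, limma) for AASS-201 and 0.14 (adjusted p = 0.805) for AASS-202. Without calf 3 these values were −3.80 (adjusted p = 4.58e-05) and −0.34 (adjusted p = 0.142). AASS-201 passed the filter through the calves alone, with all bulls below an FPKM of 1, so that it had to come out lower and its values are a description. Of 12 transcripts of the enzymes that were tested, 4 were called lower in bulls and 0 higher (9.37% of all transcripts were called lower), and without calf 3 these were 3 and 0 (13.1%). The share of all transcripts called higher is not given here, and their median log2 fold change was 0.40 with all libraries. Of those called, TMLHE-201 and GCDH-202 with all libraries, and TMLHE-201 and AASS-201 without calf 3, had likewise passed the filter through the calves alone, so nothing is read from these counts. AASS-201 made up 68.1% and 67.6% of the FPKM of the gene in calf 1 and calf 2, 28.1% in calf 3 and between 6.41% and 9.89% in bulls, shares that were chosen for display after the values were seen. How fragments of the shared exons were divided between both transcripts was set by the authors' assembly and quantification. AASS-AS1, counted by the table within AASS, lay between 0.341 and 0.503 in calves and between 0.0445 and 0.0942 in bulls, at most 1.57% of the gene except in calf 3, where it was 6.99%.

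**Figure D2:**
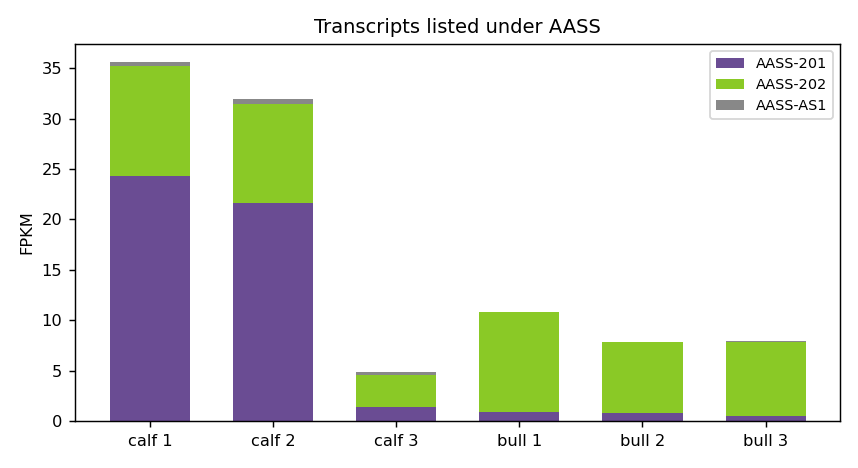
FPKM of the 3 transcripts listed under AASS, stacked for each library. The purple part, AASS-201, is at 24.3 and 21.6 in calf 1 and calf 2 and at most 1.37 in the other libraries, while the green part, AASS-202, differs less between the libraries other than calf 3.

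ALDH7A1 (ENSBTAG00000009646, chromosome 7, 27282164 to 27326576), the semialdehyde dehydrogenase that follows AASS, was at 14.3, 15.2 and 29.9 in the calves, calf 3 last, and at 3.84, 3.55 and 5.37 in the bulls. All calves were above all bulls, and calf 3 was highest, at 2.03 times the mean of calf 1 and calf 2. By limma it fell by 1.92 ± 0.32 on the log2 scale (standard error; adjusted p = 0.00314), and by 1.60 ± 0.18 (adjusted p = 0.000347) without calf 3. Nearly all of its level came from ALDH7A1-202, with 98.0% to 99.3% of the FPKM in each library.

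AADAT, the aminotransferase of the route, which also acts on kynurenine, was low in every library. The entry ENSBTAG00000050967 (chromosome 8, 1928243 to 1952612) was at 1.37, 2.16 and 2.22 in the calves and at 2.27, 1.90 and 2.01 in the bulls. In calf 3, 25.5% of this was an antisense transcript, AADAT-AS1 (0.566), and AADAT-201 was at 1.65. The groups overlapped, and the log2 fold change of 0.08 (95% interval −0.36 to 0.52, adjusted p = 0.722, limma) had an interval that stayed within 2-fold in either direction on this scale, and it turned to −0.78 (adjusted p = 0.0134) after quantile normalization. Without calf 3 it was 0.16 (adjusted p = 0.434). The neighbouring entry with the same symbol, ENSBTAG00000010326 (1954237 to 2018788), did not exceed 0.240 and was not tested. Its Ensembl transcript was listed at 0 in 6 of 6 libraries, and the level came from a transcript assembled from the reads.

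DHTKD1 and DLST, which form the oxoadipate dehydrogenase complex, were not called. DHTKD1 (ENSBTAG00000000291, chromosome 13, 12236002 to 12281753) was at 10.5, 7.94 and 7.82 in the calves and at 11.1, 11.9 and 13.1 in the bulls. All bulls were above all calves, but limma gave 0.42 ± 0.18 (log2 fold change and standard error, adjusted p = 0.0865), which was not called, and −0.10 after quantile normalization. Its main transcript, DHTKD1-201, made up 64.9% to 86.8% of the gene and was also higher in all bulls than in all calves. For this transcript limma gave 0.55 (adjusted p = 0.0347), and 0.49 (adjusted p = 0.0231) without calf 3, both under the fold change required. DLST (ENSBTAG00000006463, chromosome 10, 86137703 to 86156692), which also serves the oxoglutarate dehydrogenase of the citric acid cycle, was at 18.0, 24.2 and 20.6 in the calves and at 20.3, 18.4 and 19.6 in the bulls. The bulls lay within the range of the calves, with a log2 fold change of −0.10 (95% interval −0.49 to 0.30, adjusted p = 0.641, limma), which was 0.11 after rescaling to an equal sum and −0.77 (adjusted p = 0.00785) after quantile normalization. Without calf 3, the log2 fold changes were 0.36 (adjusted p = 0.0765) for DHTKD1 and −0.10 (adjusted p = 0.551) for DLST.

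GCDH (ENSBTAG00000016211, chromosome 7, 12657301 to 12664100), which acts on the glutaryl-CoA that the complex forms, was at 9.52, 9.95 and 12.9 in the calves and at 4.25, 5.01 and 3.73 in the bulls. The groups did not overlap, and by limma GCDH fell by 1.14 ± 0.19 on the log2 scale (standard error; adjusted p = 0.00326). Without calf 3 it was −1.02 (adjusted p = 0.00117), close to the fold change required, and with each library rescaled to the same summed FPKM GCDH was not called (−0.98, adjusted p = 0.0754). Both of its Ensembl transcripts were called lower in bulls with all libraries, GCDH-201 at −1.09 (adjusted p = 0.00467) and GCDH-202 at −1.01 (adjusted p = 0.00122), and neither was called without calf 3 (−0.97 and −0.92, under the fold change required). GCDH-202 was below an FPKM of 1 in all bulls and above it in all calves, so it too entered the test through the calves alone. It made up 16.4% to 17.6% of the gene in calves and 8.25% to 10.3% in bulls. An antisense transcript counted within the gene, GCDH-AS1, made up 11.0%, 6.23% and 1.91% in bull 1, bull 2 and bull 3. In calves it made up at most 0.838%.

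PIPOX (ENSBTAG00000007946, chromosome 19, 20406351 to 20419985), the oxidase of the pipecolate route, was at 0.0840, 0.00983 and 2.63 in the calves, calf 3 last, and at 0.0365, 0.0563 and 0.0731 in the bulls. Only calf 3 exceeded an FPKM of 0.1, and PIPOX was not tested because of the filter. In the other 5 libraries the saccharopine enzyme AASS was present and the pipecolate oxidase was near 0.

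TMLHE (ENSBTAG00000011648, chromosome X, 35551796 to 35602890), which starts carnitine synthesis, was at 4.13, 2.86 and 2.80 in the calves and at 0.527, 0.481 and 0.645 in the bulls. All calves were above an FPKM of 1 and all bulls below it, so TMLHE entered the test through the calves alone. Its test values are therefore a description. The mean fell from 3.26 ± 0.751 (SD, n = 3) to 0.551 ± 0.0849 (SD, n = 3), a level in bulls of 0.169 of that in calves. On the log2(FPKM + 1) scale, which draws in the change of a gene this low, limma gave −1.45 ± 0.17 (log2 fold change and standard error, adjusted p = 0.000652), and −2.35 with 0.1 in place of 1. Calf 3 did not stand apart, and without it the value was −1.52 (adjusted p = 0.000315). The whole level came from TMLHE-201, as TMLHE-202 was listed at 0 in 6 of 6 libraries.

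ALDH9A1 (ENSBTAG00000017852, chromosome 3, 3220577 to 3249677), the dehydrogenase of carnitine synthesis, which also oxidises other aldehydes, was not called in either direction. It was at 25.2, 16.7 and 29.3 in the calves and at 48.3, 36.6 and 33.2 in the bulls, and all bulls were above all calves. By limma, the difference of 0.72 ± 0.26 on the log2 scale (standard error) missed the call (adjusted p = 0.0570). Without calf 3 it was 0.89 (adjusted p = 0.0116), under the fold change required, and after quantile normalization it was −0.02 (adjusted p = 0.945). In the bulls ALDH9A1 was the most abundant of the 10 enzymes.

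BBOX1 (ENSBTAG00000014847, chromosome 15, 57758972 to 57839046), the last enzyme of carnitine synthesis, was listed at 0 in calf 1 and was at 0.0607 in calf 2, 9.22 in calf 3, and 0.0549, 0.108 and 0.506 in the bulls. Calf 3 was 18.2 times the next highest library, and without it no library reached an FPKM of 1, so BBOX1 was not tested. In calf 3 the level was divided mainly between BBOX1-203 (4.56) and BBOX1-202 (3.76). Of the 0.506 in bull 3, 0.451 came from a transcript assembled from the reads that spans part of the gene (57824937 to 57835732). Beside the high BBOX1 and PIPOX of calf 3 stand the brain markers given above. Of the liver and kidney markers, ALB was at 0.432 in calf 3 and at 0.157 to 0.527 in the other libraries, and the 4 liver markers summed to 75.1 in calf 3 and to between 168 and 778 elsewhere, most of it APOA1. The 4 kidney markers summed to 0.471 in calf 3, with 0 of 4 at an FPKM of 1, against 0.686 and 0.833 in calf 1 and calf 2 and 10.6 to 10.8 in bulls. SLC12A1, a kidney marker, was highest in calf 3, at 0.471 against 0.00545 to 0.264 elsewhere. The part of any of these tissues in the levels of BBOX1 and PIPOX was not tested.

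**Figure D3:**
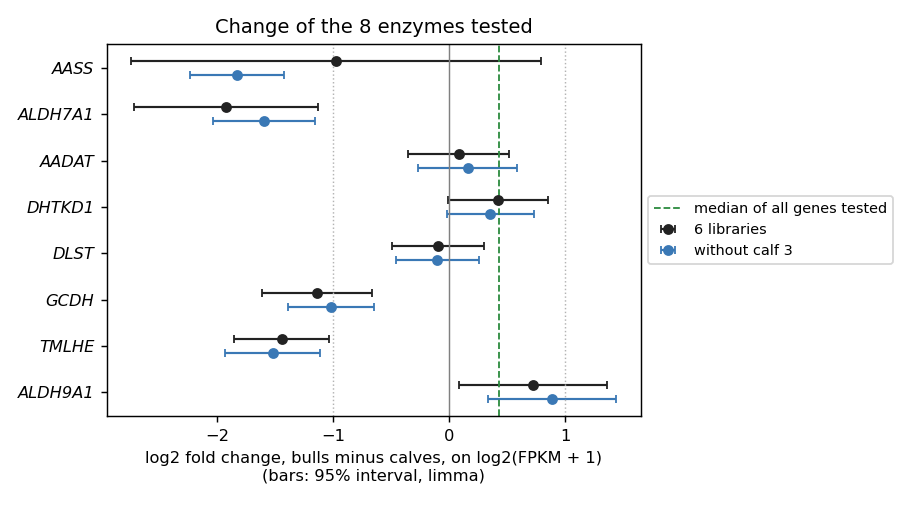
Log2 fold change (bulls minus calves, limma on log2(FPKM + 1)) of the 8 enzymes tested, with 95% intervals, for all 6 libraries in black and without calf 3 in blue. Dotted lines mark a log2 fold change of 1 in size and the green dashed line marks the median of all genes tested, 0.43; the interval of AASS narrows and leaves 0 once calf 3 is left out.

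The unequal change of paired enzymes, not all of them steps of the same route, was compared as ratios within each library. These do not depend on the scaling of the library apart from the added 1. The 5 pairs were tested by an exact permutation test (20 labelings, two-sided, smallest possible p 0.1), with Benjamini-Hochberg adjustment over the pairs. The log2 ratio of ALDH9A1 to ALDH7A1 was 0.78, 0.13 and −0.03 in the calves and 3.35, 3.05 and 2.42 in the bulls. In calves both aldehyde dehydrogenases stood at similar levels, and in bulls ALDH9A1 was well above ALDH7A1 in each animal. The difference of 2.65 gave the smallest p the design allows (exact permutation p = 0.1, adjusted 0.25), and it was 2.49 without calf 3. For GCDH over DHTKD1 the log2 ratio was −0.13, 0.29 and 0.65 in the calves and −1.20, −1.10 and −1.57 in the bulls. This pair, too, did not overlap, with a difference of −1.56 (exact permutation p = 0.1, adjusted 0.25) and of −1.37 without calf 3.

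In the other pairs the groups overlapped, and calf 3 and calf 1 lay at opposite ends of each. DHTKD1 and OGDH are E1 subunits that share DLST, and their log2 ratio was −0.03, −0.85 and −2.03 in the calves and −0.59, −0.17 and −0.44 in the bulls, a difference of 0.57 (exact permutation p = 0.5), or 0.04 without calf 3 and 1.04 without calf 1 (exact permutation p = 0.1, the smallest of 10 labelings). OGDH was at 35.1 in calf 3 and between 10.8 and 18.1 elsewhere. BBOX1 over TMLHE gave −2.36, −1.86 and 1.43 in the calves and −0.53, −0.42 and −0.13 in the bulls, and PIPOX over AASS gave −5.08, −5.03 and −0.70 in the calves and −3.51, −3.07 and −3.05 in the bulls. Their differences were 0.57 (exact permutation p = 0.8) and 0.39 (exact permutation p = 1). Without calf 3 these were 1.75 and 1.84 (exact permutation p = 0.1 for each, the smallest of 10 labelings). As BBOX1 and PIPOX are near 0 in the 5 libraries that remain, the ratios there were set mostly by the levels of TMLHE and AASS.

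**Figure D4:**
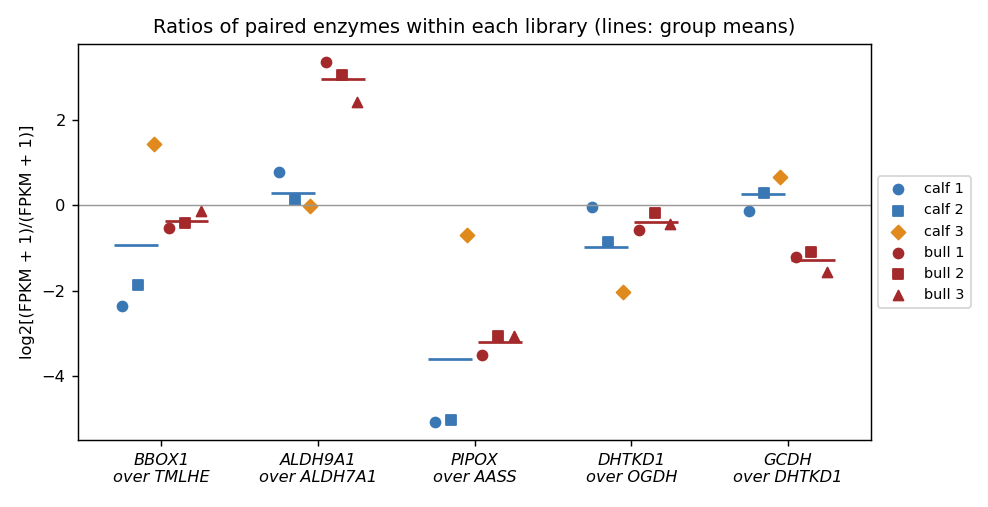
Log2 ratio of the paired enzymes in each library, with the group means of all 3 calves (blue line) and all 3 bulls (red line). The bulls lie above all calves for ALDH9A1 over ALDH7A1 and below them for GCDH over DHTKD1, and calf 3 (orange) is the extreme library of the other pairs.

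Further genes of both pathways were taken from lists of 19 and 13 symbols. On the lysine side, 18 of 19 symbols were matched and 18 were tested, with 3 called higher, 2 called lower and 13 not called, and a median log2 fold change of −0.14 (−0.13 without calf 3). Over all genes tested 35.7% were called higher and 9.61% lower, with a median of 0.43. SUGCT, which attaches CoA to free glutarate and so leads back to the step before GCDH, had 4.73, 4.28 and 5.81 in the calves and 34.4, 54.1 and 51.2 in the bulls. It rose with a log2 fold change of 2.98 (adjusted p = 0.000115, limma), opposite to GCDH, and 3.09 without calf 3. SLC7A2, a carrier of lysine and other cationic amino acids, rose by 1.41 (adjusted p = 0.0145). SLC25A21, the mitochondrial carrier of oxoadipate, rose by 1.11 (adjusted p = 0.00688) and was named after its values were seen. Both were called without calf 3 (1.08 and 1.17) but not after quantile normalization (0.72 and 0.42). Without bull 1 neither was called, SLC7A2 missing the adjusted p (0.0575) and SLC25A21 the fold change (0.94), and SLC7A2 was also not called without bull 2 (adjusted p = 0.0569) and SLC25A21 without calf 1 (0.97).

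ACAT1, which forms and splits acetoacetyl-CoA at the end of the route, was at 46.4, 50.2 and 24.3 in the calves and at 13.6, 12.2 and 16.7 in the bulls. It fell by 1.39 on the log2 scale (adjusted p = 0.00994, limma), and by 1.71 without calf 3. EHHADH, a peroxisomal enzyme of fatty acid oxidation, was at 1.97, 2.53 and 7.31 in the calves and at 0.763, 1.11 and 1.02 in the bulls, and its call (−1.18, adjusted p = 0.0477) rested on calf 3, without which it was −0.72. It was also lost without calf 2 (adjusted p = 0.0635) and without each of the bulls (adjusted p = 0.109 to 0.140). ETFA, a subunit of the flavoprotein that takes electrons from GCDH, was not called with all libraries (−0.95, adjusted p = 0.0720), and with calf 3 left out it passed as lower in bulls (−1.36, adjusted p = 0.000210), as was seen afterwards. The counts without calf 3 were again 3 higher and 2 lower, where 37.9% of all genes tested were called higher and 13.6% lower.

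Of the genes of carnitine transport and use, 13 of 13 were tested, with 3 called higher, 0 lower and 10 not called, and a median log2 fold change of 0.34 (0.31 without calf 3). The share called higher, 3 of 13, was below the 35.7% of all genes tested, whose median was 0.43. CPT1B, an isoform of the palmitoyltransferase that links fatty acids to carnitine, rose from 1.09, 2.33 and 0.818 in the calves to 45.5, 37.1 and 38.7 in the bulls. Its log2 fold change was 4.15 (adjusted p = 6.16e-05, limma), and 3.97 without calf 3. CRAT, the acetyltransferase that links acetyl groups to carnitine, was at 6.64, 7.29 and 9.54 in the calves and at 64.1, 54.5 and 59.9 in the bulls, a log2 fold change of 2.79 (adjusted p = 6.06e-05), and 2.92 without calf 3. TMLHE, the first gene of carnitine synthesis, was lower in bulls. As it passed the filter through the calves alone, its fall is a description and no contrast was tested. SLC22A4, an organic cation carrier, also rose (2.70, adjusted p = 0.00116, and 3.07 without calf 3). In calf 1 and calf 2 it was below an FPKM of 1 (0.436 and 0.760). Without calf 3 it therefore stood in the fit through the bulls alone, and that value is a description. SLC22A5, the main carrier of carnitine into cells, was at 4.33, 5.47 and 8.63 in the calves and at 2.10, 2.46 and 2.93 in the bulls, and its log2 fold change of −0.99 (adjusted p = 0.0207) was under the fold change required. It was −0.76 without calf 3, and it was called lower at a pseudocount of 0.1 (−1.22), after quantile normalization (−1.69) and without calf 1 (−1.18), calf 2 (−1.04) or bull 3 (−1.08). Both carriers were named after their values were seen. SLC22A16, a carnitine carrier known from testis, was at 3.40, 1.47 and 6.72 in the calves and at 6.77, 8.85 and 4.50 in the bulls. The groups overlapped, and its log2 fold change of 0.77 (adjusted p = 0.201, limma) was not called. It was 0.24 after quantile normalization. Without calf 3 it was called (1.18, adjusted p = 0.0183), as was seen afterwards. The counts without calf 3 were therefore 4 higher and 0 lower. Over all genes tested these shares were 37.9% and 13.6%.

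**Figure D5:**
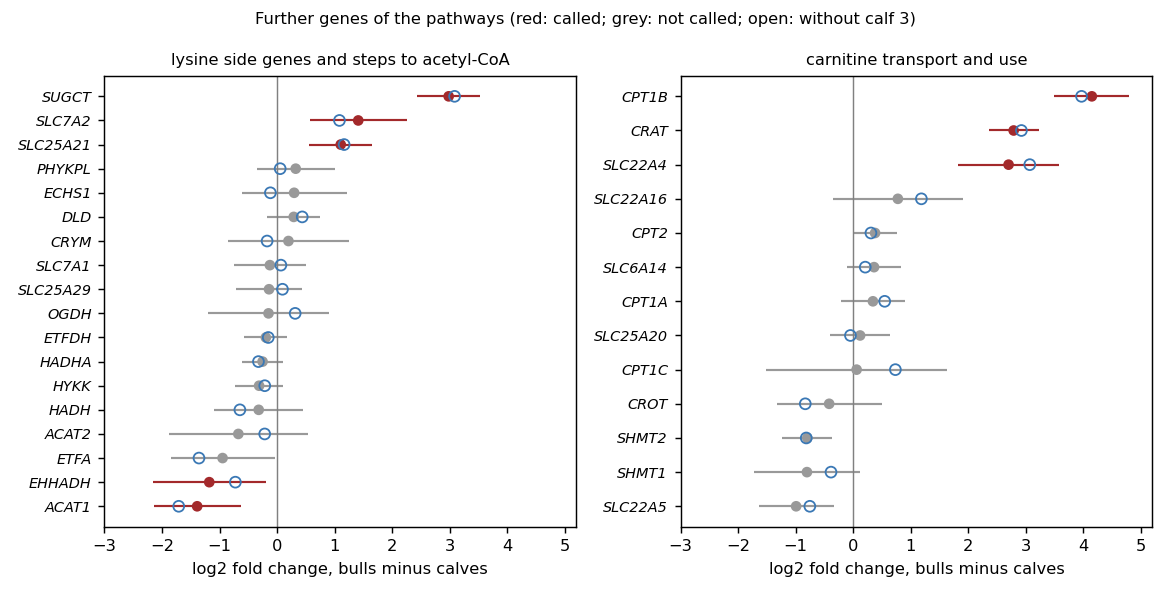
Log2 fold change (bulls minus calves, limma on log2(FPKM + 1)) of the further genes, with 95% intervals, for 18 genes on the lysine side (left) and 13 genes of carnitine transport and use (right). Red marks the 8 genes called and grey the others, and open blue circles give the value without calf 3; CPT1B, SUGCT, CRAT and SLC22A4 lie farthest to the right.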

How the data were processed

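After ribosomal reads had been taken out by Bowtie2, the authors used TopHat2 for mapping and StringTie for assembly. Cuffdiff and Ballgown are named in the study for circRNAs. For the FPKM of linear genes and transcripts, the quantification tool was not given in the sources used here. The deposited tables of genes and transcripts hold FPKM per library and no counts. The study lists clean reads per library, but not the number of fragments behind each FPKM. At FPKM below 0.05, at most 2.43% of genes shared the commonest ratio to calf 1, and counts were not recovered. Precision was therefore taken from the spread between animals. The summed FPKM ranged from 587066 to 1098715 per library, so no common total had been imposed. The Methods name UMD 3.1.1, but 99.6% of 16361 shared symbols overlapped their locus in RefSeq's ARS-UCD2.0 annotation, and positions are those of the tables on an ARS-UCD assembly, whose exact version was not given. Of the 11 entries for the enzymes, 10 overlapped, the second AADAT entry not.

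On the log2(FPKM + 1) scale, features with 3 or more of the 6 libraries at an FPKM of 1 or above were fitted with limma 3.58.1 in R 4.3.3 (mean-variance trend, two-sided, Benjamini-Hochberg over all 18115 genes or 23212 transcripts). The procedure was tested on simulated data whose spread was taken without calf 3. That test therefore does not cover the spread that calf 3 adds. Fits without calf 3 used the same genes. Alternatives were another pseudocount, no filter, quantile normalization, rescaling to an equal sum, no trend, array weights, a replicate block and each library left out. Named were all enzymes, the genes of each ratio and, of each further list, the 2 largest increases and 2 largest decreases among genes called. Lists of macrophage (summed FPKM 18.4 to 80.1), endothelial (4.71 to 19.4) and spermatocyte markers (3.03 to 19.7 in calves, 245 to 295 in bulls) were also read. The enzymes and lists were chosen with earlier results of these data known. No sequences are shown, and circRNAs were not analysed here. Figures were drawn with matplotlib 3.10.9.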

Additional observations from a re-analysis of the deposited data

How the results depend on the processing

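TMLHE and ALDH7A1 kept their direction and call in 13 of 13 alternatives (log2 fold changes −2.35 to −1.30 and −2.57 to −1.60), and GCDH kept its call in 12, all but the rescaling to an equal sum (−0.98). As TMLHE passed the filter through the calves alone, its calls are given as a description. AASS was called in 2, without calf 3 (−1.83) and with array weights (−1.80), and was −0.51 without calf 1 and −0.59 without calf 2. The median over all genes tested was 0.43, −0.26 after quantile normalization and 0.63 after rescaling, and relative to 0.43 the values were −1.41 for AASS, −0.35 for AADAT, −0.01 for DHTKD1, −0.52 for DLST and 0.30 for ALDH9A1. After quantile normalization, 3827 genes were called higher and 4538 lower, against 6474 and 1741, and the signs turned for ALDH9A1 (−0.024), AADAT (−0.78, adjusted p = 0.0134, limma) and DHTKD1 (−0.10). DLST turned to 0.11 after rescaling. Leaving out single libraries, AADAT lay between −0.062 and 0.16 and DLST between −0.19 and 0.010, both turning sign. The further genes called, 8 with all libraries, numbered between 5 (without bull 1, which lost EHHADH, SLC7A2 and SLC25A21) and 9 (without calf 3), and 12 after quantile normalization. Over all genes tested, 6100 were called higher and 1218 lower without bull 1, and 6859 and 2466 without calf 3. The ratio of BBOX1 to TMLHE ranged from −0.14 (without calf 1) to 1.75 (without calf 3), and that of PIPOX to AASS from −0.35 (without calf 1) to 1.84 (without calf 3), with −0.29 at a pseudocount of 0.1. That of DHTKD1 to OGDH ranged from 0.042 (without calf 3) to 1.04 (without calf 1). The cause of these changes was not tested.

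The labels pair calves and bulls by nothing but a number. Deviations of same-numbered animals correlated at 0.02 to 0.03, and those of the other pairs at −0.05 to 0.02. Whether same-numbered animals shared a processing step was not tested. With the replicate block, 3 enzymes and 8 further genes were called, where 6437 of all 18115 genes tested were called higher and 1691 lower. Of the transcripts of the enzymes, 5 were called against 4 without the block. The share over all transcripts with the block is not given here, and nothing is read from these counts. Without the filter, BBOX1 (−0.87, adjusted p = 0.478, limma) and PIPOX (−0.59, adjusted p = 0.396) were tested and not called. Because counts per gene were not recovered, values near 0 carry no counting error here.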
